A study of Homo sapiens with 12 samples.

Results

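Transcripts of 10 genes of inflammatory signalling were followed in U937 cells given JS-K, a diazeniumdiolate prodrug from which nitric oxide is set free inside the cell. They are the interleukin-1 family genes IL1A, IL1B, IL18 and IL1RN, the cytokine genes TNF, IL6, OSM, LIF and CSF1, and PTGS2, which encodes the inducible cyclooxygenase. The genes were taken by name out of 19775 measured genes, through probe sets listed with that symbol and no other, and each gene was read from its brightest probe set on average. All 10 were measured, by 21 probe sets in all.

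U937, an established human line of monocyte-like cells labelled as leukemia cells, was grown in RPMI medium with fetal bovine serum. One group received the vehicle, whose solvent the labels do not name, and the other groups had 90 min, 4 h or 24 h of JS-K, with 3 arrays in each of the 4 groups, labelled as biological replicates. The labels give neither the dose of JS-K nor the length of the vehicle exposure, and a single vehicle group served all 3 times, so that time in culture and JS-K cannot be told apart. Nothing says that the replicates came from separate cultures, and p-values then measure the spread between these samples only. All values are log2 levels made by the authors with GCRMA, and a level under 4 is called low signal here.

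Interleukin-1α and interleukin-1β are alarm cytokines that signal through the same receptor, and the product of IL1RN occupies that receptor without signalling. Interleukin-1β and interleukin-18 are made as inactive precursors that caspase-1 cleaves in the inflammasome, so a transcript level alone does not tell how much active cytokine is released. Monocytes keep most of these transcripts low until stimulated, and their mRNAs are short-lived through AU-rich elements that bind decay factors such as ZFP36. PTGS2 makes the precursor of prostaglandins, and interleukin-1 and TNF are among its known inducers.

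In 5 of the genes a level above low signal was reached, and the times of the rises differed. OSM and IL1RN were higher than in vehicle by 90 min, and PTGS2 by 4 h. IL1B, already higher at 4 h, was highest at 24 h, with an estimated level 7.11-fold that of vehicle. IL1B was at low signal in vehicle, so this fold may understate the change. IL18 was well above low signal in vehicle and was 1.98-fold higher at 24 h. IL1A, TNF, IL6, LIF and CSF1 stayed under 4 on all 12 arrays. In such bulk samples, more RNA per cell and a larger share of cells that express a gene cannot be told apart.

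The stretches before the start sites are shown for genes that rose (IL1B, IL1RN and PTGS2) and for 1 that stayed at low signal (IL6). Windows of IL1A and TNF, also at low signal, and the third window of IL1RN are not printed. RefSeq on GRCh38.p14 gave windows for 6 of the 10 genes, 9 windows in all. IL1RN had 3 start sites and IL1A had 2. Each line gives the 250 bases before a start site, 5′ to 3′ on the strand of the gene. Capitals mark every match on either strand, and adjoining matches run together. The motifs were AP-1 (TGANTCA), CRE (TGACGTCA), C/EBP (TTNNGNAA), STAT (TTCNNNGAA), the TATA box (TATAAA) and the NF-κB consensus (GGGRNWYYCC). N stands for any base, R for A or G, W for A or T and Y for C or T.
IL1B, chr2:112836780-112837029, minus strand: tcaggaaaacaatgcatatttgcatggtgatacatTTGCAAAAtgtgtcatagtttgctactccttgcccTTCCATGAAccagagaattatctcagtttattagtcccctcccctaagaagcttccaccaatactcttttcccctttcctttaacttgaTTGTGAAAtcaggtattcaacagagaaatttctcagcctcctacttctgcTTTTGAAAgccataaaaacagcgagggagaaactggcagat
PTGS2, chr1:186680424-186680673, minus strand: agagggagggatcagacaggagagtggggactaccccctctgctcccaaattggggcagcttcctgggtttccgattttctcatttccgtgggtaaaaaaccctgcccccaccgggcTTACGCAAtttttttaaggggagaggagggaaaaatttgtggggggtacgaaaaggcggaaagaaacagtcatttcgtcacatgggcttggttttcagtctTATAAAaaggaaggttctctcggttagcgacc
IL1RN, the first start site, chr2:113117721-113117970, plus strand: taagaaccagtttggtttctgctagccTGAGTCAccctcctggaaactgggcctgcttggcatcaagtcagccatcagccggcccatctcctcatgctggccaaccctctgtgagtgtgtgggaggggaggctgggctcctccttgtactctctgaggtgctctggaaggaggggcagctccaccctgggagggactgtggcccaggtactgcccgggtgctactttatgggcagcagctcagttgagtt
IL1RN, the second start site, chr2:113127239-113127488, plus strand: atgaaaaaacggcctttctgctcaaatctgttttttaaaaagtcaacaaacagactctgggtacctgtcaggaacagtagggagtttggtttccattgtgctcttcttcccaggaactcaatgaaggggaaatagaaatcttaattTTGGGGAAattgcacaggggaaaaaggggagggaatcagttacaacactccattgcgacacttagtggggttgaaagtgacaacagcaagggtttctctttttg
IL6, chr7:22726950-22727199, plus strand: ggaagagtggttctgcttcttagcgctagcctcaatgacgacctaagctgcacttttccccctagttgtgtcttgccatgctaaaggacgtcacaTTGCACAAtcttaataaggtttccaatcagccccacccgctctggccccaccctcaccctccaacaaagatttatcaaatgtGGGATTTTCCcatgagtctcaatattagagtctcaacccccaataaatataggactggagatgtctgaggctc

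IL1B held 3 C/EBP matches and 1 STAT match in this window, and PTGS2 held a C/EBP match at positions −133 to −126 from the start site and a TATA match at −32 to −27. The first window of IL1RN held 1 AP-1 match and the second held 1 C/EBP match, while the third held C/EBP and TATA matches. Both windows of IL1A held AP-1 and C/EBP matches, the first also a TATA match, and TNF held a C/EBP and a TATA match. AP-1, C/EBP and TATA matches thus occurred in genes that rose and in genes at low signal. IL6, at low signal on every array, was the 1 gene of the 6 with a match to the NF-κB consensus, at −73 to −64 (GGGATTTTCC). It also held a C/EBP match at −155 to −148. Stretches that differed from the NF-κB letters in any base were not counted, so looser sites in other genes were not looked for. A C/EBP match occurred in 8 of the 9 windows and in 33.2% of all 35116 windows of this length, an AP-1 match in 3 and in 6.57%, a TATA match in 4 and in 10.7%, a STAT match in 1 and in 6.57%, an NF-κB match in 1 and in 5.21%, and a CRE match in none and in 1.65%. The windows of IL1A overlap each other, as do the second and the third of IL1RN, and the median GC content was 47.6% in the 9 windows and 58% in all. A match is a run of letters and was not tested as a binding site.

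Before the 10 genes are compared, 3 features of the arrays bear on them. Replicate 2 of the 4 h group had an array median of 3.1, against 2.84 to 2.99 on the other 11 arrays, and the 4 h differences of the changed genes are also given without it. Probe sets for bacterial poly-A spike transcripts had means of 3.04 ± 0.05 (vehicle), 3.08 ± 0.06 (90 min), 7.02 ± 0.15 (4 h) and 8.47 ± 0.05 (24 h; SD, n = 3), so that spike signal moves with the groups, and its part in the results was not tested. Of 10 measured monocytic and myeloid markers, 7 (ITGAM, CSF1R, LYZ, SPI1, CEBPA, CD4 and CSF2RA) lay at 4 or above in vehicle, while CD14, FCGR1A and MPO did not. Several of them moved with the groups: at 24 h ITGAM was 1.57 higher (adjusted p = 1.6e-08) and SPI1 1.58 higher (adjusted p = 2.11e-05). LYZ and CSF2RA were higher at all 3 times, and CEBPA was lower at 4 h and 24 h. CD4 was lower at 90 min and 4 h (−0.53 and −0.43, adjusted p = 0.0155 and 0.0217). Of 34 measured markers of lymphoid, erythroid, fibroblast, epithelial and endothelial cells, 4 lay at 4 or above in vehicle (NKG7, PAX5, COL1A1 and CLDN5). The T cell receptor chains CD3D, CD3E and CD3G lay at 2.35 or below in every group. PAX5 fell by 1.08 at 4 h and by 1.65 at 24 h (adjusted p = 0.0182 and 0.000597), and NKG7 rose by 0.41 and 0.42 at 90 min and 4 h. The part of these marker changes in the results was not tested.

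**Figure D1:**
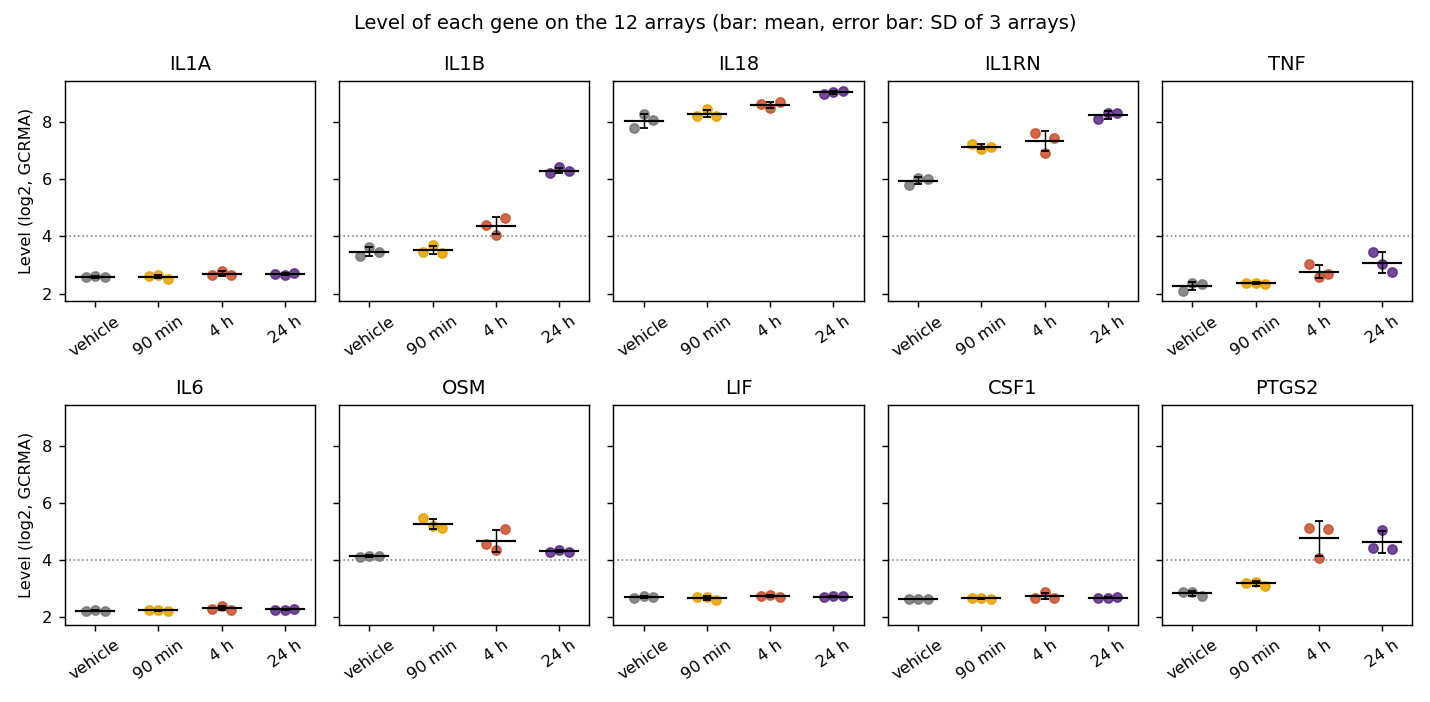
Level of each of the 10 genes (log2, GCRMA) on the 12 arrays, by group. Points are arrays, horizontal bars are means of 3 arrays with the SD, and the dotted line marks 4. IL1B reaches 6.3 at 24 h, OSM is highest at 90 min with a mean of 5.27, and IL1A, TNF, IL6, LIF and CSF1 lie under the line throughout.

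IL1B lies on chromosome 2 (112829751 to 112836779), next to IL1A (112773925 to 112784493) and with IL1RN (113099360 to 113134014) in the same region. Its level was 3.33, 3.62 and 3.47 in the vehicle arrays and 3.45, 3.71 and 3.43 at 90 min. At 4 h it was 4.42, 4.06 and 4.66, and at 24 h it was 6.22, 6.41 and 6.28. The vehicle and 90 min arrays thus lay within the same range, the 4 h arrays lay above both, and the 24 h arrays lay far above all others. Against vehicle the log2 difference was 0.06 ± 0.16 at 90 min (adjusted p = 0.932), 0.91 ± 0.16 at 4 h (adjusted p = 0.00153) and 2.83 ± 0.16 at 24 h (adjusted p = 3.81e-08; limma, SE, n = 3 and 3). Since vehicle was at low signal, the 7.11-fold rise at 24 h (95% interval 5.55 to 9.11) may understate the change. Between times IL1B rose by 0.85 ± 0.16 from 90 min to 4 h (adjusted p = 0.0051) and by 1.92 ± 0.16 from 4 h to 24 h (adjusted p = 2.67e-06). The second probe set of the gene, 205067_at, gave 0.16 ± 0.29 at 90 min (adjusted p = 0.942), 1.14 ± 0.29 at 4 h (adjusted p = 0.0186) and 3.60 ± 0.29 at 24 h (adjusted p = 1.54e-06). Without replicate 2 of the 4 h group the difference at 4 h was 1.07 ± 0.14.

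IL1A, the neighbouring gene, encodes the form of interleukin-1 that is active without cleavage. Its level lay between 2.53 and 2.8 on the 12 arrays, and no difference from vehicle passed the test (0.01 ± 0.05, 0.11 ± 0.05 and 0.10 ± 0.05 at 90 min, 4 h and 24 h, with adjusted p of 0.945, 0.0576 and 0.0936). The bacterial trp control probe sets, a measure of low signal, shifted to the same extent, from 2.53 in vehicle to 2.66 and 2.63 at 4 h and 24 h. The second probe set, 208200_at, gave −0.39 ± 0.24 at 24 h (adjusted p = 0.194).

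IL18 lies on chromosome 11 (112143260 to 112164094), apart from the other interleukin-1 family genes, and is read by 1 probe set. Its levels were 7.8, 8.29 and 8.06 in vehicle, 8.22, 8.45 and 8.22 at 90 min, 8.62, 8.49 and 8.68 at 4 h and 8.99, 9.05 and 9.08 at 24 h. The groups are in the order of time: vehicle and 90 min overlap, and the 4 h and 24 h arrays lie apart from them and from each other. Against vehicle IL18 differed by 0.25 ± 0.12 at 90 min (adjusted p = 0.291) and rose by 0.55 ± 0.12 at 4 h (adjusted p = 0.00438) and by 0.99 ± 0.12 at 24 h (adjusted p = 2.06e-05). Between neighbouring times the difference did not pass from 90 min to 4 h (0.30 ± 0.12, adjusted p = 0.139) and passed from 4 h to 24 h (0.44 ± 0.12, adjusted p = 0.0153). That last call ended without 4 h replicate 2 (adjusted p = 0.0516) or 24 h replicate 3 (adjusted p = 0.0524). Without 4 h replicate 2 the difference of 4 h from vehicle was 0.60 ± 0.13.

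IL1RN, the gene of the interleukin-1 receptor antagonist, rose at all 3 times. Levels of its probe set 212657_s_at were 5.81, 6.04 and 6.01 in vehicle, 7.24, 7.05 and 7.12 at 90 min, 7.61, 6.93 and 7.43 at 4 h and 8.09, 8.31 and 8.32 at 24 h. Every JS-K array lay above every vehicle array, the 90 min and 4 h arrays overlapped, and the 24 h arrays lay above both. The rise over vehicle was 2.28-fold at 90 min (1.19 ± 0.16, adjusted p = 0.000464), 2.59-fold at 4 h (1.37 ± 0.16, adjusted p = 5.64e-05) and 4.89-fold at 24 h (2.29 ± 0.16, adjusted p = 1.75e-07). From 90 min to 4 h the difference was 0.19 ± 0.16 (adjusted p = 0.365), and from 4 h to 24 h it was 0.92 ± 0.16 (adjusted p = 0.000791). Without replicate 2 of the 4 h group the difference of 4 h from vehicle was 1.57 ± 0.11.

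The early rise of IL1RN rested on that probe set. The others above low signal, 212659_s_at and 216243_s_at, gave 0.34 ± 0.24 and 0.55 ± 0.20 at 90 min (adjusted p = 0.696 and 0.153), and 0.34 ± 0.24 and 0.39 ± 0.20 at 4 h (adjusted p = 0.248 and 0.12). At 24 h both rose, by 1.14 ± 0.24 (adjusted p = 0.00317) and 1.28 ± 0.20 (adjusted p = 0.000304), about 1 log2 unit less than 212657_s_at. The remaining pair, 216244_at and 216245_at, stayed under 3 on every array. Within low signal both passed in limma at 4 h, by 0.18 and 0.05 (adjusted p = 0.0483 and 0.0347). At 24 h 216245_at passed again, by 0.05 (adjusted p = 0.0318). Averaged over all 5 probe sets the gene still passed at each time, with differences of 0.43 ± 0.09, 0.47 ± 0.09 and 0.98 ± 0.09 at 90 min, 4 h and 24 h. RefSeq gives IL1RN several start sites, and which transcripts each probe set reads is not given in the sources used here.

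**Figure D2:**
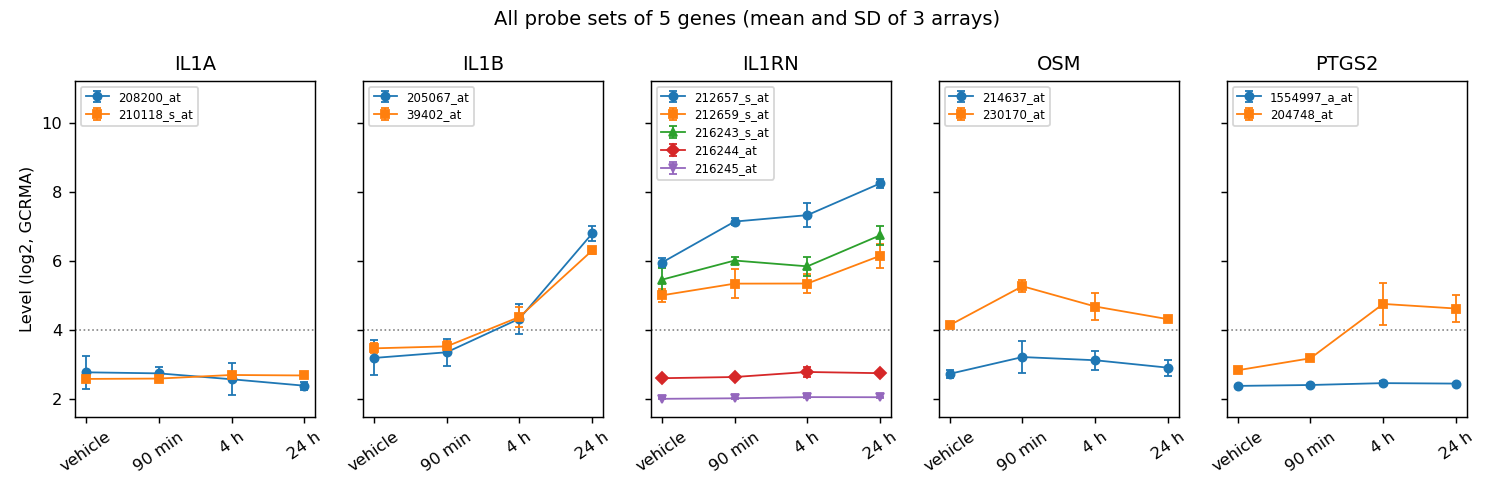
Mean level (log2, GCRMA) of every probe set of IL1A, IL1B, IL1RN, OSM and PTGS2 in the 4 groups, with the SD of 3 arrays, and a dotted line at 4. The probe sets of IL1B run together, whereas 212657_s_at of IL1RN goes from 5.95 to 7.14 by 90 min while 212659_s_at reaches 5.34 at 90 min and 6.15 at 24 h.

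TNF, on chromosome 6 (31575565 to 31578336), encodes the tumor necrosis factor that monocytes shed from their surface. It stayed at low signal, with levels of 2.1, 2.37 and 2.34 in vehicle, 2.39, 2.39 and 2.34 at 90 min, 3.04, 2.58 and 2.7 at 4 h and 3.46, 3.04 and 2.75 at 24 h. The 4 h and 24 h arrays all lay above the vehicle arrays but overlapped each other. The log2 difference from vehicle passed the test at 4 h (0.50 ± 0.16, adjusted p = 0.0335) and at 24 h (0.81 ± 0.16, adjusted p = 0.00109), and not at 90 min (0.10 ± 0.16, adjusted p = 0.93). With both ends under 4 the size of this rise cannot be read as a fold of transcript. The call at 4 h ended without vehicle replicate 1 (adjusted p = 0.121), vehicle replicate 3 (adjusted p = 0.0641) or 4 h replicate 1 (adjusted p = 0.0641), as it did with array medians subtracted (adjusted p = 0.0506), quantile normalization (adjusted p = 0.0898) or a constant prior spread (adjusted p = 0.0656). Without replicate 2 of the 4 h group it was 0.60 ± 0.17 (adjusted p = 0.032).

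OSM, LIF and IL6 encode cytokines whose receptors share the gp130 subunit, and of the 3 only OSM was above low signal. Oncostatin M is made by activated monocytes and macrophages, and its gene lies beside LIF on chromosome 22 (OSM at 30262829 to 30266851, LIF at 30240453 to 30246759). OSM levels were 4.11, 4.16 and 4.16 in vehicle, 5.47, 5.19 and 5.14 at 90 min, 4.58, 4.36 and 5.11 at 4 h and 4.28, 4.37 and 4.3 at 24 h. The order of the groups was thus 90 min, 4 h, 24 h and vehicle, with 4 h and 24 h overlapping and replicate 3 of the 4 h group close to the 90 min arrays. At 90 min OSM was 2.18-fold higher than in vehicle (1.13 ± 0.18, adjusted p = 0.00156). At 4 h the difference was 0.54 ± 0.18 (adjusted p = 0.0412), and at 24 h it was 0.17 ± 0.18 (adjusted p = 0.406), with a 95% interval of −0.22 to 0.56.

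The decline of OSM after 90 min did not pass the test between neighbouring times, with −0.59 ± 0.18 from 90 min to 4 h (adjusted p = 0.0578) and −0.37 ± 0.18 from 4 h to 24 h (adjusted p = 0.205). Single arrays decided these calls. Without replicate 3 of the 4 h group the first became −0.80 (adjusted p = 0.00642), and without replicate 2 the second became −0.53 (adjusted p = 0.0339). The call at 4 h against vehicle ended without 4 h replicate 3 (0.33, adjusted p = 0.0775), without any 1 of the vehicle arrays (adjusted p = 0.0703 to 0.114), without 90 min replicate 2 (adjusted p = 0.0545) and without any 1 of the 24 h arrays (adjusted p = 0.0557 to 0.0569). It also ended with array medians subtracted (adjusted p = 0.0549) and in a fit of the 6 arrays alone (adjusted p = 0.126). Without replicate 2 of the 4 h group the difference of 4 h from vehicle was 0.70 ± 0.16. The second probe set, 214637_at, lay at low signal in all groups and gave 0.49 ± 0.21 at 90 min (adjusted p = 0.259), 0.39 ± 0.21 at 4 h (adjusted p = 0.125) and 0.18 ± 0.21 at 24 h (adjusted p = 0.463).

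IL6, LIF and CSF1 stayed at low signal throughout. IL6, on chromosome 7 (22727200 to 22731998), encodes a fever and acute-phase cytokine and lay between 2.22 and 2.4. LIF, the leukemia inhibitory factor gene, lay between 2.61 and 2.77. CSF1, on chromosome 1 (109910506 to 109930992), encodes the growth factor of macrophages, and lay between 2.64 and 2.87. None of their 9 differences from vehicle passed the test (adjusted p = 0.0529 to 0.931), and the mean of these genes and IL1A was 2.54 in vehicle, 2.55 at 90 min, 2.63 at 4 h and 2.6 at 24 h, beside 2.47, 2.48, 2.55 and 2.54 for the median of the 9906 genes under 4 in all groups. The highest value of IL1A, IL6, LIF and CSF1 was that of replicate 2 of the 4 h group, the array with the highest median. Of the 4 probe sets of CSF1, 207082_at and 210557_x_at passed at 4 h with differences of 0.06 and 0.07 (adjusted p = 0.0449 and 0.0477), both far under 4. In other settings IL6, LIF and CSF1 passed too, with differences of 0.13 or less in size. LIF was higher at 4 h with array weights (0.03, adjusted p = 0.0137) and lower at 24 h after quantile normalization (−0.08, adjusted p = 0.0343). Differences of this size within low signal are not read as a change of transcript.

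PTGS2 lies on chromosome 1 (186671791 to 186680423). Its levels were 2.87, 2.9 and 2.74 in vehicle, 3.21, 3.25 and 3.09 at 90 min, 5.12, 4.06 and 5.09 at 4 h and 4.42, 5.07 and 4.39 at 24 h. The 90 min arrays lay slightly above vehicle and still at low signal, and the 4 h and 24 h arrays lay above 4 and overlapped each other. At 90 min the difference from vehicle was 0.35 ± 0.26 (adjusted p = 0.656). It passed with array weights (adjusted p = 0.0149), in a fit that stopped before convergence and called 31.4% of all genes higher. It also passed in a fit of the 6 arrays alone, without (adjusted p = 0.00883) or with a replicate block (adjusted p = 0.00357). The labels do not pair these arrays, and that block was chosen after seeing the data. By 4 h PTGS2 rose 3.78-fold (95% interval 2.57 to 5.56), a log2 difference of 1.92 ± 0.26 (95% interval 1.36 to 2.47, adjusted p = 0.000169). At 24 h it was 3.45-fold higher (95% interval 2.34 to 5.07), a log2 difference of 1.78 ± 0.26 (adjusted p = 0.000104). As vehicle was at low signal, these folds may understate the change. The step from 90 min to 4 h was 1.57 ± 0.26 (adjusted p = 0.00175), and 24 h differed from 4 h by −0.13 ± 0.26 (adjusted p = 0.815, 95% interval −0.69 to 0.42). Without replicate 2 of the 4 h group the rise at 4 h was 2.27 ± 0.18. The second probe set, 1554997_a_at, stayed near 2.4 in all groups, and averaging both brought the differences to 1.00 ± 0.12 at 4 h and 0.93 ± 0.12 at 24 h.

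**Figure D3:**
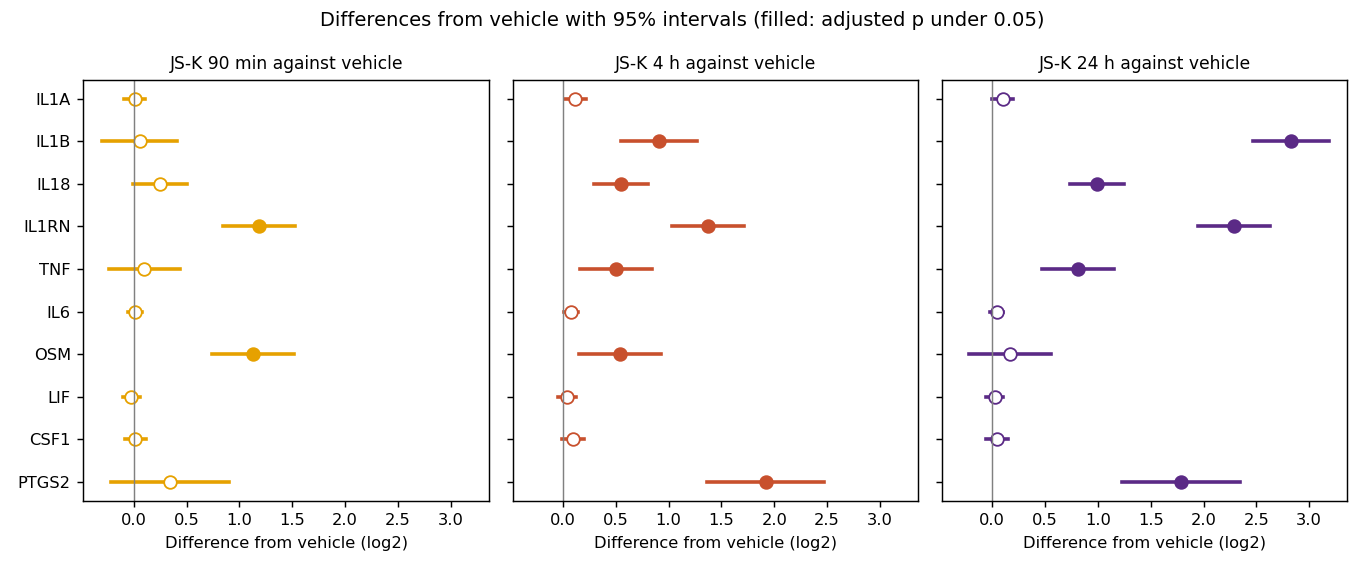
Log2 difference of each gene from vehicle at 90 min, 4 h and 24 h of JS-K, with 95% intervals from the fit of all 12 arrays. Filled points have an adjusted p under 0.05: OSM and IL1RN at 90 min, 6 genes at 4 h and 5 at 24 h.

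Counted together, 2 of the 10 genes were higher at 90 min, when 4.03% of all genes were called higher and 5.62% called lower against vehicle. At 4 h 6 were higher (23.9% of all genes higher, 16.6% lower), and at 24 h 5 were (17.8% higher, 18.9% lower). None was lower at an adjusted p under 0.05 in limma at any of the 3 times, nor at an unadjusted p under 0.05. The median difference of the 10 genes was 0.08, 0.52 and 0.49 in that order, beside 0.01, 0.06 and 0.06 for all genes. From 90 min to 4 h 2 of the genes rose (3.33% of all genes higher, 7.25% lower) and from 4 h to 24 h 3 did (12.8% higher, 10.7% lower). Across all 4 groups the moderated F test passed for 6 of the 10, against 38.1% of all genes. The 3 comparisons with vehicle share its arrays and are not independent. All 3 arrays lay above all vehicle arrays for 3 of the 10 genes at 90 min (12.9% of all genes), for 9 at 4 h (51.3%) and for 9 at 24 h (60.6%), so that such separation was common in the later groups. The split of calls over all genes moved with the fit and with single arrays. Of those called at 4 h, 59.0% were higher (4735 genes), against 47.0% after quantile normalization, 34.1% with a constant prior spread (1507 genes) and 31.9% to 34.3% without any 1 vehicle array (1121 to 1338 genes), and the share from 90 min to 4 h went from 31.5% to 46.4%. With array medians subtracted the share from 4 h to 24 h went from 54.5% to 32.7%.

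Among genes with a level of at least 4 in either group, 8.03% were higher at 90 min, 14.6% at 4 h and 26.3% at 24 h. Among genes under 4 in both groups, 0.217% were higher at 90 min, 33% at 4 h and 9.44% at 24 h. Without replicate 2 of the 4 h group the counts of the 10 genes were 2 at 90 min, 6 at 4 h and 8 at 24 h, and the additional 3 at 24 h were IL1A, IL6 and CSF1, with differences of 0.04 to 0.10. In that fit 12.5% of all genes were higher at 4 h and 52% at 24 h, so that the larger count at 24 h went with a larger share over all genes. After quantile normalization LIF and CSF1 were instead called lower at 24 h (−0.08 and −0.06). IL6 also changed sign at 24 h under that scaling (−0.01), whereas IL1A did not.

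The counts of the following lists of related genes are read against the shares over all genes given above, and calls of low-signal genes against the 33% of such genes called higher at 4 h. Receptors of the interleukin-1 family were divided. Of 9 measured genes, 2 rose at 90 min, 3 rose and 1 fell at 4 h, and 3 rose and 1 fell at 24 h (medians 0.01, 0.07 and 0.09). IL1RAP, the accessory chain that interleukin-1 receptor signalling requires, rose by 0.65 ± 0.12, 0.78 ± 0.12 and 1.02 ± 0.12 at 90 min, 4 h and 24 h (adjusted p = 0.00467, 0.000571 and 2.28e-05). IL18R1, the ligand-binding chain of the interleukin-18 receptor, fell by 1.37 ± 0.25 at 4 h and by 1.36 ± 0.25 at 24 h. IL1RL1, the receptor of interleukin-33, passed with differences of 0.10 at 4 h and 0.09 at 24 h at low signal. Also at low signal were the rises of IL18RAP at 90 min (0.85) and IL1RAPL1 at 4 h (0.07). The 8 other ligands and antagonists of the family included 3 that passed at 4 h, IL36RN (0.27 ± 0.08), IL33 (0.13 ± 0.05) and IL36G (0.06 ± 0.02), all at low signal, and IL36RN passed at 24 h.

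Genes of the inflammasome and of interleukin-1 processing moved both ways. Of 16 measured, 1 rose and 3 fell at 90 min, 3 rose and 3 fell at 4 h, and 8 rose and 2 fell at 24 h (medians 0.01, 0.07 and 0.21). Among the rises, CARD18 at 4 h (0.08) and NLRP1 at 24 h (1.46) were at low signal. P2RX7, the ATP-gated channel that triggers the NLRP3 inflammasome, fell by 0.98 ± 0.15 at 90 min and then rose, by 1.15 ± 0.15 at 4 h and 2.93 ± 0.15 at 24 h (adjusted p = 1.73e-08). TXNIP, an inhibitor of thioredoxin that binds NLRP3, fell by 1.19 ± 0.08 at 90 min and by 1.01 ± 0.08 at 4 h and was 1.58 ± 0.08 higher at 24 h. CARD8, a relative of NLRP1 that senses protease activity, followed the same course on a smaller scale (−0.36, −0.24 and 0.48, each ± 0.07).

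In interleukin-1 receptor signalling, 4 of 13 measured genes rose at 4 h and 6 rose and 1 fell at 24 h, while at 90 min none passed in limma (2 higher and 2 lower at an unadjusted p under 0.05). IRAK2, a kinase of the receptor complex, rose by 0.87 ± 0.10 at 4 h and by 1.43 ± 0.10 at 24 h (adjusted p = 2.21e-07). TAB2, an adaptor of the kinase TAK1, rose by 0.48 ± 0.10 and 0.92 ± 0.10, and IRAK1 by 0.27 ± 0.10 and 0.63 ± 0.10.

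Among 9 receptor and shedding genes for TNF, the interleukin-6 family and CSF1, 1 rose at 90 min, 4 rose at 4 h, and 3 rose and 1 fell at 24 h. LIFR, counted as rising at 4 h and 24 h (0.26 and 0.31), was at low signal. CSF1R, the receptor of CSF1 and a marker of macrophage differentiation, went from 4.19 in vehicle to 6.99 at 24 h (2.80 ± 0.23, adjusted p = 9.31e-07), while its ligand gene stayed at low signal. TNFRSF1B, the second receptor of TNF, rose by 0.48 ± 0.13 at 4 h and by 1.90 ± 0.13 at 24 h. IL6R, the interleukin-6 receptor chain, was highest early, with 0.65 ± 0.07 at 90 min, 0.29 ± 0.07 at 4 h and 0.10 ± 0.07 at 24 h (adjusted p = 0.193). Of 13 JAK, STAT and SOCS genes, which carry the signals of these receptors, 1 fell at 90 min, 1 rose and 2 fell at 4 h, and 5 rose and 1 fell at 24 h. STAT3, the transcription factor downstream of gp130, rose by 0.53 ± 0.12 at 4 h and 0.77 ± 0.12 at 24 h, PIAS3, an inhibitor of STAT3, fell by 0.70 ± 0.19 at 90 min and 0.66 ± 0.19 at 4 h, and SOCS2, a feedback inhibitor, fell by 1.6 ± 0.22 at 24 h.

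Around PTGS2, the enzymes that make prostaglandins and leukotrienes were split between rises and falls. Of 18 measured, 2 rose and 1 fell at 90 min, 4 rose and 3 fell at 4 h, and 4 rose and 5 fell at 24 h. The rises of HPGDS (0.13) and ALOX5 (0.11) at 4 h were at low signal. So were those of ALOX5 (0.13) and AKR1C3 (0.10) at 24 h, and above low signal only TBXAS1 and ALOX5AP rose. TBXAS1, the thromboxane synthase that uses the product of cyclooxygenase, rose by 0.94 ± 0.09, 1.1 ± 0.09 and 0.98 ± 0.09 in time order (adjusted p = 3.09e-05, 3.11e-06 and 1.66e-06). On the leukotriene side, ALOX5AP, which presents arachidonic acid to 5-lipoxygenase, rose by 1.47 ± 0.07 at 24 h, and LTA4H, the hydrolase that makes leukotriene B4, fell by 1.14 ± 0.09. Of 11 prostanoid receptor and transport genes, none passed at 90 min in limma or at an unadjusted p under 0.05, 4 passed with differences of 0.06 to 0.15 at 4 h, all at low signal (PTGER1, PTGDR2, PTGFR and SLCO2A1), and 1 fell, and 1 rose and 3 fell at 24 h. PTGER2, a prostaglandin E2 receptor, fell by 0.87 ± 0.17 at 4 h and by 2.02 ± 0.17 at 24 h, and the thromboxane receptor TBXA2R and the prostaglandin exporter ABCC4 fell by 1.88 ± 0.21 and 1.67 ± 0.14 at 24 h.

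**Figure D4:**
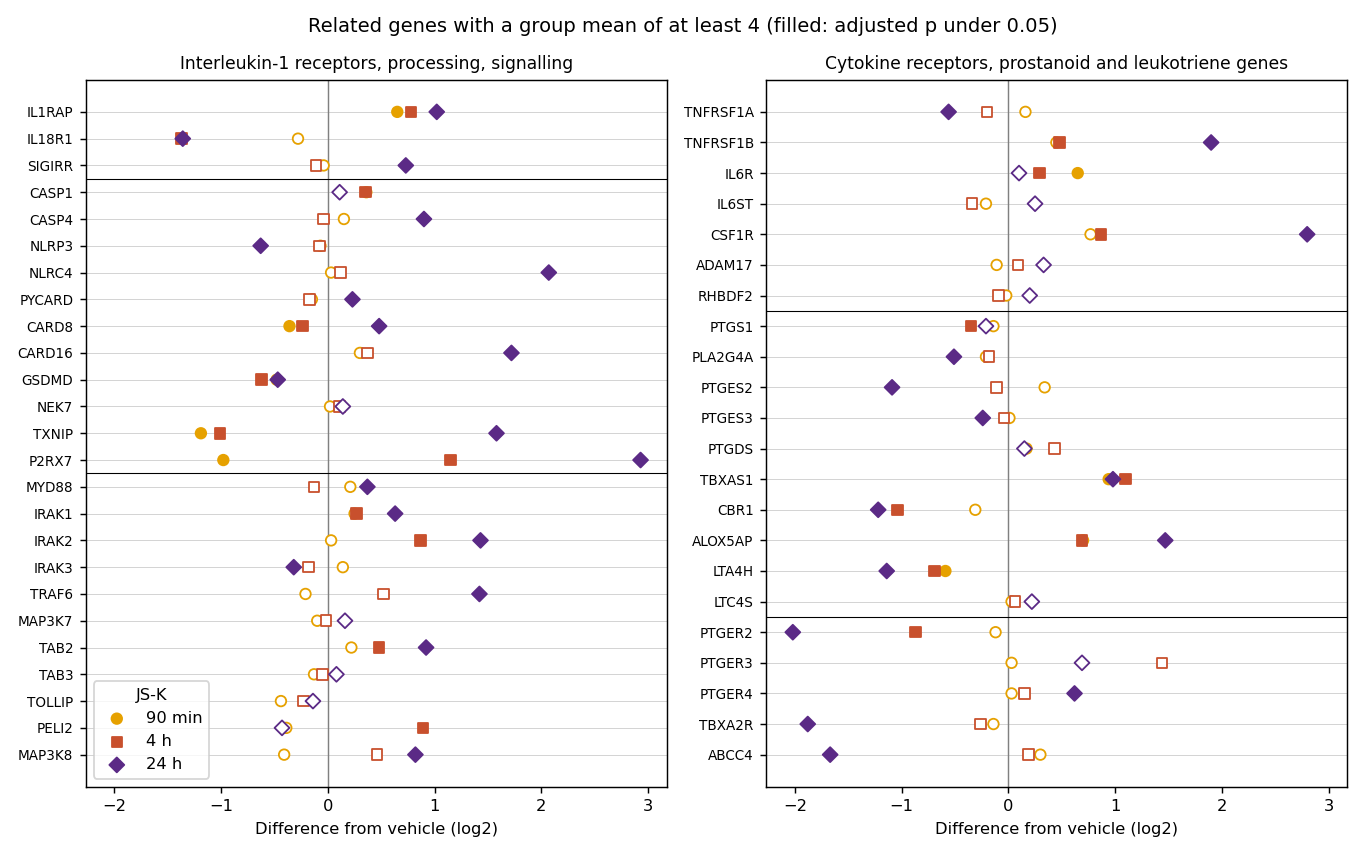
Log2 difference from vehicle at 90 min, 4 h and 24 h for the related genes with a group mean of at least 4. The left panel holds interleukin-1 family receptors, processing genes and signalling genes, the right panel cytokine receptors, prostanoid and leukotriene enzymes, and prostanoid receptors, with filled symbols for an adjusted p under 0.05. P2RX7 goes from −0.98 at 90 min to 2.93 at 24 h, and PTGER2 reaches −2.02.

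Of 11 measured genes that bind AU-rich elements or degrade cytokine mRNAs, all of which reached 4, 1 rose and 3 fell at 90 min, 2 rose and 4 fell at 4 h, and 3 rose and 6 fell at 24 h (medians 0.02, −0.15 and −0.20). Among all genes with a level of at least 4 in either group, 10.9%, 32.6% and 36.9% were lower at these times. Whether the 3, 4 and 6 lower genes of the 11 depart from these shares was not tested. ZFP36, which triggers the decay of TNF and other cytokine mRNAs, rose at all 3 times, by 1.6 ± 0.14, 2.07 ± 0.14 and 2.56 ± 0.14 (adjusted p = 1.53e-05, 6.3e-07 and 1.87e-08). Its relative ZFP36L2 fell by 0.29 ± 0.08, 0.72 ± 0.08 and 0.86 ± 0.08, and TIAL1, an RNA-binding protein of stress granules, fell by 0.39 ± 0.10, 0.61 ± 0.10 and 0.36 ± 0.10. Of 20 other measured interleukin and growth factor genes, 1 rose and 3 fell at 90 min, 5 rose and 2 fell at 4 h, and 2 rose and 2 fell at 24 h. Among the rises at 4 h, IL15 (0.28), IL27 (0.03) and IL20 (0.06) were at low signal. HBEGF, an EGF receptor ligand, rose by 1.85 ± 0.13, 2.02 ± 0.13 and 2.81 ± 0.13, TNFSF13B, the B cell activating factor, fell by 0.38 ± 0.08, 0.78 ± 0.08 and 0.95 ± 0.08, and IL12A fell by 0.80 ± 0.23, 0.74 ± 0.23 and 0.75 ± 0.23 at low signal.

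The genes whose course over the 12 arrays was most like each changed gene were found among 9864 genes by the root mean square difference of their values, each gene centred on its vehicle mean. IL1B was closest to FCGR2A, a receptor for immunoglobulin G (0.26 log2 units), SMIM3 (0.27) and FILIP1L (0.29). For FCGR2A the differences from vehicle were 0.10, 0.86 and 2.54 in time order. IL1RN was closest to S100A9, a calcium-binding protein of myeloid cells (0.16), MICAL2 (0.19) and GSG1 (0.20), and S100A9 gave 1.11, 1.21 and 2.37. OSM was closest to DBN1 (0.16), NCOA7 (0.20) and YPEL3-DT (0.22), of which DBN1 gave 1.18, 0.41 and 0.06. PTGS2 was closest to PLAU, the urokinase gene (0.29), SGMS2 (0.30) and HEG1 (0.31), and PLAU gave 0.19, 1.70 and 1.89. IL18 was closest to APOBEC3B (0.11), CRIP1 (0.12) and DGKD (0.12).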

How the data were processed

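RNA of 12 samples was read on 3′ expression arrays, in 4 groups of 3. Per the labels' protocols, random hexamers and a whole-transcript kit were used for labelling. The authors deposited 1 log2 value per probe set and array, made with GCRMA in Affymetrix Expression Console per the submitters' processing notes. The values were used without further scaling, and no column was left out. Of 54675 probe sets, 41097 had 1 gene symbol, 1801 several and 11777 none, from GEO's platform annotation. Of the former, 41043 matched RefSeq (GRCh38.p14), which supplied current symbols. The probe set with the highest mean stood for a gene.

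Differences were fitted over all 19775 genes on all 12 arrays, using limma 3.58.1 (eBayes with a trend) under R 4.3.3, with 8 residual degrees of freedom and Benjamini-Hochberg adjustment over all genes of a comparison. Calls needed an adjusted p under 0.05. Levels carry an SD, differences an SE, and folds were computed from log2 differences. Precision is limited by the number of arrays. The fit was tested on simulated data with noise drawn independently for each gene and array. Shifts common to the genes of an array were thus not tested. Figures were drawn with matplotlib 3.10.9.

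The 10 genes, the 10 lists of related genes (134 entries, 128 measured) and the alternatives were chosen with earlier results of these data known. Up to 3 genes per list were named: those called in the most comparisons with vehicle, then by size of difference. For each changed gene that reached 4, the 3 nearest genes were named. Replicate numbers recur in each group, but deviations from group means of same-numbered arrays correlated at −0.155 to 0.297 (median 0.0585), over 0.1 in 6 of 18 pairs. Arrays with different numbers correlated at −0.309 to 0.199 (median −0.019), over 0.1 in 4 of 36 pairs. The 3 pairs of vehicle and 90 min arrays gave 0.263, 0.234 and 0.124 and were taken as pairs in an alternative chosen after seeing the data, the others were not, and the labels name no shared culture or day. Vehicle replicate 3 and 90 min replicate 2, with different numbers, gave 0.152, so that these values do not establish pairs.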

Additional observations from a re-analysis of the deposited data

Results flagged for a closer look

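Between 90 min and 4 h the effect against vehicle differed for IL1B (0.85) and PTGS2 (1.57), and between 4 h and 24 h for IL1B (1.92), IL1RN (0.92) and IL18 (0.44), each in the direct test between the times. Poly-A spike probe sets, which no comparison used, averaged 7.02 at 4 h and 8.47 at 24 h, above the 3.04 of vehicle. Their part in the gene results was not tested.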

How the results depend on the processing

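Each of the 50 differences (10 genes, 5 comparisons) was recomputed under up to 11 alternatives, 460 values in all, of which 400 kept their direction and side of the threshold, 5 lost the call, 34 gained one and 21 turned in sign. Over 600 values with 1 array left out, these numbers were 564, 13, 11 and 12. Calls of IL1B, IL18, IL1RN and PTGS2 at 4 h and 24 h held in these fits wherever the gene was tested. So did those of IL1RN and OSM at 90 min and of TNF at 24 h. Other probe sets of OSM (90 min) and PTGS2 did not pass. Nor did the other probe sets of IL1RN above low signal at 90 min and 4 h. The signs that turned belonged to low-signal genes or to differences that had not passed, and their cause was not tested. The mean of the probe sets turned IL1A to −0.0101 at 90 min, −0.0432 at 4 h, −0.1433 at 24 h and −0.0331 from 90 min to 4 h. Quantile normalization turned, at 90 min, IL1A to −0.0127, IL6 to −0.0016 and CSF1 to −0.0064, at 4 h LIF to −0.0714 and CSF1 to −0.0172, at 24 h IL6 to −0.0112, LIF to −0.0828 and CSF1 to −0.0571, and from 90 min to 4 h LIF to −0.0237 and CSF1 to −0.0107. Subtracting array medians turned LIF to 0.0037 at 90 min and, at 24 h, IL6 to −0.0267, LIF to −0.0449 and CSF1 to −0.0233. Array weights, whose fit stopped before convergence, turned LIF to 0.0091 at 90 min, and IL1A to 0.0187 and CSF1 to 0.0101 from 4 h to 24 h. With 1 array left out, the differences at 90 min spanned −0.0093 to 0.0454 for IL1A, −0.0321 to 0.1306 for IL1B and −0.0416 to 0.0146 for LIF. From 4 h to 24 h they spanned −0.0448 to 0.0349 for IL1A, −0.0607 to 0.0047 for IL6, −0.025 to 0.0008 for LIF, −0.0834 to 0.0117 for CSF1 and −0.4815 to 0.0465 for PTGS2.

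Of the 10 genes, array weights called 4 higher at 90 min, 10 at 4 h, 8 at 24 h and 7 from 90 min to 4 h. That fit called 31.4%, 56.9%, 57.9% and 36.4% of all genes higher in these comparisons. It called 1 of the 10 lower from 90 min to 4 h and 2 from 4 h to 24 h, beside 3272 and 3749 of all 19775 genes. Leaving out genes with a mean under 4 gave 3 higher at 24 h and 1 from 90 min to 4 h, as fewer of the genes are then tested. Of all genes tested in that fit, 27.9% and 8.61% were higher. The 6 arrays of the comparison alone gave 8 higher at 24 h, in a fit that called 53.2% of all genes higher (10514). Quantile normalization gave 2 lower at 24 h, when 3851 of all 19775 genes were lower. Subtracted medians gave 2 lower from 4 h to 24 h, with 4438 of all genes lower. OSM was the 1 gene called lower from 90 min to 4 h with a constant prior spread, with the dimmest genes or all genes of mean under 4 left out, with quantile normalization and with array weights. With 1 array left out, the genes called higher numbered 2 at 90 min, 4 to 8 at 4 h, 5 to 8 at 24 h, 2 to 3 from 90 min to 4 h and 2 to 3 from 4 h to 24 h, and those called lower 0 to 1 in both comparisons between times. In those fits 2.78% to 5.38% of all genes were higher at 90 min, 5.67% to 41.2% at 4 h and 13% to 52% at 24 h. From 90 min to 4 h 2.33% to 3.97% were higher, and from 4 h to 24 h 10.8% to 13.4%. A replicate block over all 12 arrays, although the labels do not pair them, gave 2, 8, 5, 2 and 3 genes higher in the same order and 0 lower. Its shares of all genes called higher were 4.14%, 33.3%, 21.4%, 3.55% and 13%. Its 8 at 4 h added IL1A (adjusted p = 0.0486) and IL6 (adjusted p = 0.0412). A replicate block in the 6 vehicle and 90 min arrays, chosen after seeing the data, gave 3 higher (IL1RN, OSM and PTGS2) and 0 lower, while IL18 had an adjusted p of 0.112. In that fit 5.88% of all genes were higher. Over all genes, 4735 were higher at 4 h, between 1018 (the 6 arrays alone) and 11257 (array weights), and 3518 were higher at 24 h, between 2575 and 11458. The counts of 796 higher and 1111 lower at 90 min ranged from 549 to 6207 and from 622 to 3320. From 90 min to 4 h, 658 higher and 1434 lower ranged from 374 to 7193 and from 842 to 3272, and from 4 h to 24 h 2535 and 2114 ranged from 1989 to 4149 and from 1705 to 4438. The lower counts of 3286 at 4 h and 3735 at 24 h ranged from 2167 to 5268 and from 3300 to 6642. Levels under 4 limit what these arrays can show, as differences that start there may understate the change.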
